A study of Mus musculus with 12 samples.

Results

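The genes described are 10 genes of cytochrome c oxidase (Cox4i1, Cox4i2, Cox6a1, Cox6a2, Cox6b1, Cox7a1, Cox7a2, Cox7a2l, Cox8a and Cox8b), chosen by name from the 23163 genes of the count table, and all 10 were found. For 4 subunits the set holds both a tissue-restricted isoform (Cox4i2, Cox6a2, Cox7a1, Cox8b) and its ubiquitous partner (Cox4i1, Cox6a1, Cox7a2, Cox8a). Cox6b1 is a further ubiquitous isoform, and Cox7a2l is a paralog of Cox7a2. RNA sequencing counts came from brown adipose tissue (BAT, the heat-producing depot) and subcutaneous white adipose tissue (sWAT) of wild-type male C57Bl/6 mice aged 8 to 12 weeks. The study used 20 mice, 10 at each temperature, held for 72 hours. The groups were BAT in cold (4 °C), BAT at thermoneutrality (30 °C), sWAT in cold (4 °C) and sWAT at thermoneutrality (30 °C), with 3 libraries each. The labels do not say whether a library was 1 animal or a pool, and the experiment number (1 to 3) in each title is not explained, so p-values measure the spread between these libraries, which may be partly technical.

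Cytochrome c oxidase, complex IV of the respiratory chain, passes electrons from cytochrome c to oxygen and pumps protons across the inner mitochondrial membrane. Its catalytic core is encoded by mitochondrial DNA, and the surrounding subunits are encoded in the nucleus. Several nuclear subunits exist as a form made in most tissues and a form enriched in heart and skeletal muscle (Cox6a2, Cox7a1, Cox8b), while Cox4i2 is best known from lung and for its response to oxygen. Brown fat is rich in mitochondria, which Ucp1 uncouples to make heat, and Cox7a1 and Cox8b are commonly measured as markers of brown and beige fat.

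Promoter sequences are shown for both isoform pairs with a RefSeq window for each member (Cox7a1 with Cox7a2, Cox8b with Cox8a) and for Cox6a1, which carries a motif that the other windows lack. Each is the 250 bases before the gene's RefSeq start (GRCm38.p6, the mm10 genome), read 5′ to 3′ on the gene's strand, with matches to any of the motifs searched in capitals. The windows lie at chr7:30183921-30184170 on the plus strand (Cox7a1) and, all on the minus strand, at chr9:79759854-79760103 (Cox7a2), chr7:140900447-140900696 (Cox8b), chr19:7217617-7217866 (Cox8a) and chr5:115348959-115349208 (Cox6a1).
Cox7a1: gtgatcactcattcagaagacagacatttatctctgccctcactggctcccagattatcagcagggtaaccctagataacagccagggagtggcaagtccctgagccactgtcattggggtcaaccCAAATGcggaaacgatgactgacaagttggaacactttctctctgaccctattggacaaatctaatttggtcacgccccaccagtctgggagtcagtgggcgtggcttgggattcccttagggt
Cox7a2: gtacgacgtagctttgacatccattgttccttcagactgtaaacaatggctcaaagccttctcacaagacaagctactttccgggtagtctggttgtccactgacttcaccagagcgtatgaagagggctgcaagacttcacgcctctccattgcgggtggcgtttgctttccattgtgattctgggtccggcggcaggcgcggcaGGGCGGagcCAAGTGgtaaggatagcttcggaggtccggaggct
Cox8b: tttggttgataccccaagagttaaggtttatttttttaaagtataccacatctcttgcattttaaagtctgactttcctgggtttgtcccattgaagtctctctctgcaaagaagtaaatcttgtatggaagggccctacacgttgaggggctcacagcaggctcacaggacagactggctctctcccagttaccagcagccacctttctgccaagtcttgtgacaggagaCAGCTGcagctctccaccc
Cox8a: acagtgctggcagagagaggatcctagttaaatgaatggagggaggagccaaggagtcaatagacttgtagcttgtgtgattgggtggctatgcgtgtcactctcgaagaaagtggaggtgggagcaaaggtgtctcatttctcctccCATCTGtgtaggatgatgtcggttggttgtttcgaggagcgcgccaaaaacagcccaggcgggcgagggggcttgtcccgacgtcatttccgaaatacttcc
Cox6a1: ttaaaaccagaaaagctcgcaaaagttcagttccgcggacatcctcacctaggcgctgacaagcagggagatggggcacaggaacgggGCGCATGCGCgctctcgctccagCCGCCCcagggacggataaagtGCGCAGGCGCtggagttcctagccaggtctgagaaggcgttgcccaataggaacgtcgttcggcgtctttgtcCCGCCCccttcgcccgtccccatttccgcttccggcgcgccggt
RefSeq windows were matched for 7 of the 10 genes, all but Cox4i1, Cox4i2 and Cox6a2. On either strand, AAGGTCA (the half-site of estrogen-related receptors) was in 0 of these 7 windows and in 4.08% of the 32851 mouse promoter windows of the same length. CANNTG (the E-box) was in 6 of 7, against 66.2% of all windows. GGGCGG (the GC box) was in 3 of 7 (Cox6a1, Cox7a2 and Cox7a2l), against 32.7% of all windows. The consensus of nuclear respiratory factor 1 (a palindrome, searched with 1 base left free) occurred at 2 places in the Cox6a1 window, in 0 of the other 6, and in 3.74% of all windows. No match of 1 motif overlapped a match of another. A match describes these letters and does not show binding.

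Total counts were 27117934 to 56243016 per library. The 3 sWAT thermoneutral libraries stood apart: mitochondrially encoded genes took 0.181 to 0.307% of their counts, against 17.6 to 53.8% in the other 9, and ribosomal protein genes took 7.18 to 8.14%, against 0.338 to 1.85%. The depot labels were checked with the Ucp1, Lep and Adipoq genes. Ucp1 averaged 21902 ± 1603 CPM (counts scaled to a common library total) in BAT cold, 1929.9 ± 576 in BAT thermoneutral, 9344 ± 5371 in sWAT cold and 175 ± 178 in sWAT thermoneutral libraries (SD, n = 3). Lep, the leptin gene of white fat, averaged 10.8 ± 3.71, 67.9 ± 2.98, 101 ± 66.7 and 96.9 ± 36.4 CPM in that order, and Adipoq, the adiponectin gene of all adipocytes, averaged 559.8 ± 109, 1512 ± 904, 834 ± 45.5 and 1029 ± 177 CPM. The positional genes Hoxc9 and Hoxc10 were at 0 in at least 1 BAT library and in 0 sWAT libraries. The scaling used library totals times TMM factors. In whole tissue, fewer cells of a type and less RNA per cell cannot be told apart.

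Within the groups, single libraries set much of the spread of the 10 genes. BAT cold library 3 was lower than the mean of the group's other libraries for 8 of the 10 genes, with gaps on the log2 CPM scale from −4.37 (Cox6a2) and −3.02 (Cox6a1) to 0.21 (Cox7a2). sWAT cold library 1 was lower for 9 of the 10 genes, and by more than 1 on the log2 scale for 8. BAT thermoneutral library 3 was lower for 8 genes but higher by 1.93 for Cox6a2 and by 1.87 for Cox7a2l. Slopes on GC content were fitted to log2 CPM less each gene's mean over the 12 libraries, so they are relative to the average library. Per 10 percentage points the slope was −0.93 in BAT cold library 3, which also had the highest mitochondrial share (53.8%). It was −0.66 in sWAT cold library 1, −0.59 in BAT thermoneutral library 3, and 0.67 to 1.26 in the 3 sWAT thermoneutral libraries. Whether base composition set these gaps was not tested.

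**Figure D1:**
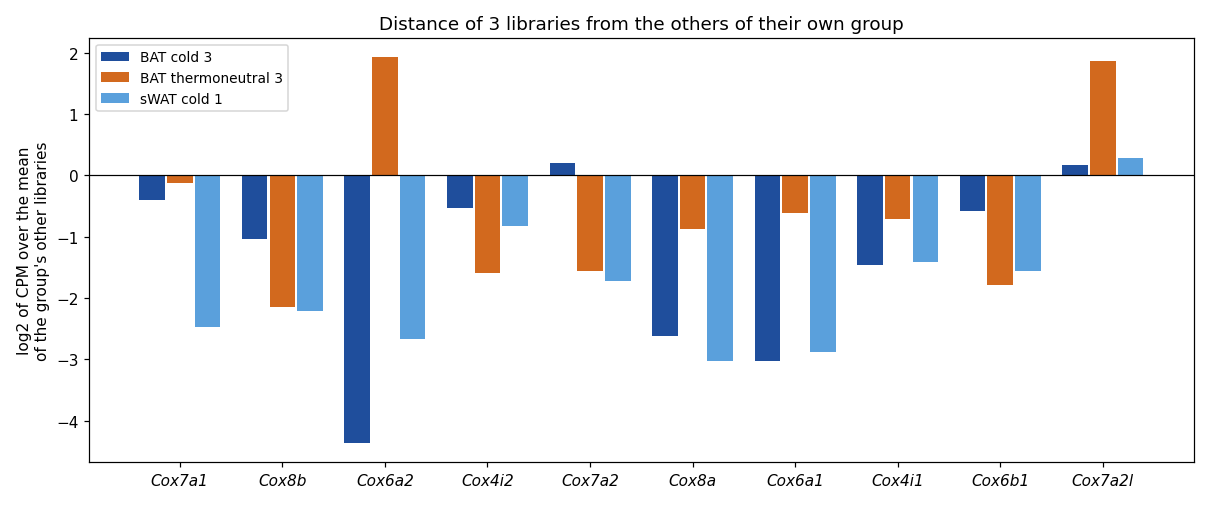
Log2 of CPM in BAT cold library 3, BAT thermoneutral library 3 and sWAT cold library 1 over the mean CPM of the other libraries of the same group (y axis), for the 10 genes (x axis). The bars of sWAT cold library 1 lie below 0 for 9 genes, and those of BAT thermoneutral library 3 lie above 0 for Cox6a2 and Cox7a2l only.

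Cox7a1 (chr7:30184144-30186078, plus strand), the heart and muscle isoform of subunit 7a, rose in cold sWAT and was higher in BAT than sWAT at thermoneutrality. Both comparisons use the sWAT thermoneutral libraries, which stood apart in composition as given above. A gene is said to have risen, fallen, passed or been called where its adjusted p was under 0.05. It had 600.0, 685 and 487 CPM in BAT cold libraries, against 414, 465 and 404 CPM in BAT thermoneutral libraries. Every BAT cold library lay above every BAT thermoneutral library. In sWAT it had 81.1, 446 and 459 CPM in cold libraries, against 82.9, 27.4 and 12.5 CPM in thermoneutral libraries. Here sWAT cold library 1 lay just below sWAT thermoneutral library 1, so the groups overlapped, while the other cold libraries were above all 3 thermoneutral ones. In edgeR's quasi-likelihood test, with p adjusted over all genes tested (Benjamini-Hochberg), the log2 fold change of cold over thermoneutral was 2.98 ± 0.81 in sWAT (SE, adjusted p = 0.0153) and 0.52 ± 0.27 in BAT (adjusted p = 0.231). The response in sWAT minus that in BAT was 2.54 ± 0.91 (adjusted p = 0.0552). BAT over sWAT was 3.39 ± 0.69 at thermoneutrality (adjusted p = 0.00106), where the groups did not overlap, and 0.85 ± 0.63 in cold (adjusted p = 0.446), where they did not overlap either. The call in sWAT ended with sWAT thermoneutral library 2 left out (adjusted p = 0.0656), without the low-count filter (adjusted p = 0.0504), and with the replicate number as a block (adjusted p = 0.0625). The difference of responses did not pass in 17 of 23 alternative fits either (adjusted p up to 0.128). It passed with sWAT cold library 1 left out (2.76, adjusted p = 0.0197), with sWAT thermoneutral library 1 left out (3.57, 0.0132), in DESeq2 (2.36, 0.0274) and after GC correction (3.34, 0.0136).

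Cox8b (chr7:140898945-140900446, minus strand), the heart and muscle isoform of subunit 8, passed in none of the 5 comparisons as fitted without corrections. It had 432, 408 and 205 CPM in BAT cold libraries, against 728, 602 and 151 CPM in BAT thermoneutral libraries. BAT thermoneutral library 3 lay below all BAT cold libraries, and the other thermoneutral ones lay above them. The sWAT values were 94.3, 430.1 and 444 CPM in cold libraries, against 361, 243 and 81.2 CPM in thermoneutral libraries. The sWAT groups overlapped, with cold library 1 near the lowest thermoneutral library. Log2 fold changes of cold over thermoneutral were −0.44 ± 0.55 in BAT and 0.48 ± 0.65 in sWAT (SE, adjusted p = 0.628 and 0.561), and BAT over sWAT was 0.11 ± 0.67 in cold and 1.11 ± 0.67 at thermoneutrality (adjusted p = 0.947 and 0.171). After GC correction the value at thermoneutrality was 1.91 and passed (adjusted p = 0.0146).

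Cox6a2 (chr7:128205435-128206387, minus strand), the heart and muscle isoform of subunit 6a, was the other tissue-restricted isoform that rose in cold sWAT. It had 90.8, 123 and 5.18 CPM in BAT cold libraries, against 33.1, 74.4 and 205 CPM in BAT thermoneutral libraries. Within BAT it varied from 5.18 to 205 CPM, the groups overlapped, and the lowest and highest values came from the libraries numbered 3. In sWAT it had 34.2, 227 and 209.9 CPM in cold libraries, against 14.4, 45.8 and 3.19 CPM in thermoneutral libraries. Cold libraries 2 and 3 were above all thermoneutral ones, and cold library 1 lay between them. The log2 fold change of cold over thermoneutral was 2.89 ± 0.94 in sWAT (SE, adjusted p = 0.0314) and −0.47 ± 0.96 in BAT (adjusted p = 0.783), and their difference was 3.41 ± 1.51 (adjusted p = 0.113). BAT over sWAT was −1.11 ± 1.05 in cold (adjusted p = 0.565) and 2.30 ± 1.09 at thermoneutrality (adjusted p = 0.0852). The sWAT call ended with each of 5 libraries left out in turn (adjusted p = 0.0536 to 0.113), namely the 3 cold libraries and thermoneutral libraries 1 and 3. It also ended without the low-count filter (2.86, adjusted p = 0.116). With BAT cold library 3 left out, BAT over sWAT at thermoneutrality passed (adjusted p = 0.0374), as it did with sWAT thermoneutral library 2 left out (adjusted p = 0.0365).

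Skeletal muscle markers also rose in cold sWAT. Summed over 20 muscle markers, levels were 6614 to 9326 CPM in BAT cold, 5059 to 17835 in BAT thermoneutral, 11442 to 29151 in sWAT cold and 166 to 6321 in sWAT thermoneutral libraries, and 0 of the 20 were at 0 in any library. Of the 20, 16 rose in cold sWAT and 0 fell, where 25.1% of all genes tested rose and 24.1% fell, while in cold BAT 3 fell and 0 rose, where 5.34% fell and 6.82% rose. Per 100 counts of these markers, Cox6a2 had 1.24, 1.32 and 0.0783 counts in BAT cold, 0.653, 0.468 and 1.15 in BAT thermoneutral, 0.299, 0.785 and 0.72 in sWAT cold and 0.567, 0.725 and 1.93 in sWAT thermoneutral libraries. Relative to the markers, the sWAT groups overlapped and the lowest sWAT value was in cold library 1. Brown fat markers moved in the same samples: 7 of 8 tested rose in cold sWAT (25.1% of all genes), and their sum was 4540 to 16999 CPM in sWAT cold, against 181 to 756 CPM in sWAT thermoneutral libraries. Their part in the levels of Cox6a2 and Cox7a1, which skeletal muscle and brown fat are both known to make, was not tested. Cox6a2 also overlaps Itgad on the opposite strand, and the strand setting of the counting is not given in the sources used here.

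**Figure D2:**
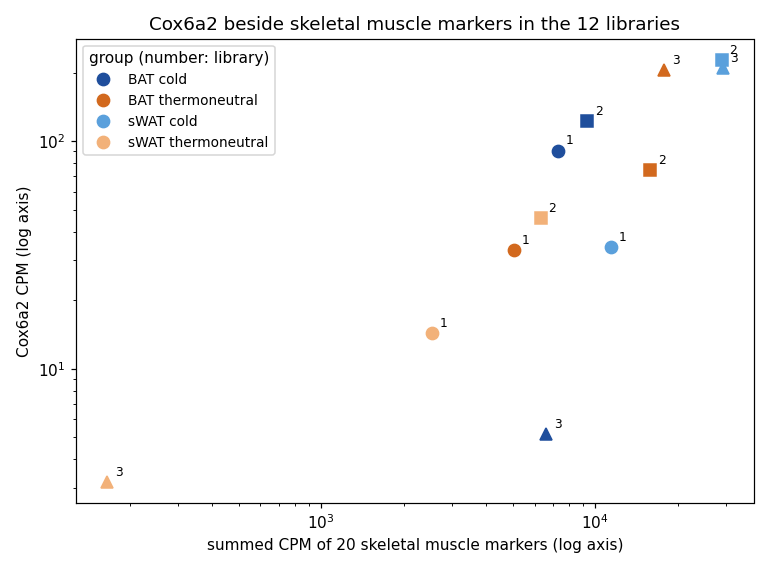
Cox6a2 CPM (y axis, log) against the summed CPM of 20 skeletal muscle markers (x axis, log) in the 12 libraries, coloured by group and numbered by library. The lowest muscle sum, 166 CPM in sWAT thermoneutral library 3, goes with the lowest Cox6a2 value, 3.19 CPM, and BAT cold library 3 lies at 5.18 CPM of Cox6a2 with a muscle sum of 6614 CPM.

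Cox4i2 (chr2:152754173-152765037, plus strand), the oxygen-responsive isoform of subunit 4, was the least abundant of the 10 genes in every group and passed none of the 5 comparisons as fitted without corrections. It had 3.14, 3.73 and 2.39 CPM in BAT cold libraries, against 4.57, 3.62 and 1.36 CPM in BAT thermoneutral libraries. In sWAT it had 1.26, 2.26 and 2.19 CPM in cold libraries, against 3.30, 1.31 and 1.46 CPM in thermoneutral libraries. These values rest on 54 to 142 counts per library, and the groups overlapped except BAT cold, which lay above sWAT cold. Log2 fold changes of cold over thermoneutral were 0.023 ± 0.45 in BAT and −0.10 ± 0.46 in sWAT, and BAT over sWAT was 0.70 ± 0.48 in cold and 0.65 ± 0.48 at thermoneutrality (SE, adjusted p from 0.259 to 0.981). After GC correction the value at thermoneutrality passed (adjusted p = 0.00466), and after correction for GC and length it was 1.79 (adjusted p = 0.00126). Summed levels of 12 pericyte and smooth muscle markers were 790 to 1170 CPM in BAT cold and 836 to 1153 in BAT thermoneutral, against 502 to 578 in sWAT cold and 368 to 548 in sWAT thermoneutral libraries, and their part in these levels was not tested.

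Cox7a2 (chr9:79755361-79759878, minus strand), the ubiquitous partner of Cox7a1, was higher in BAT than sWAT at thermoneutrality. It had 204, 204 and 236 CPM in BAT cold libraries, against 556, 448 and 171 CPM in BAT thermoneutral libraries. The cold libraries lay close together, and the thermoneutral ones spread to both sides of them. The sWAT values were 54.5, 210.0 and 150.2 CPM in cold libraries, against 143, 46.4 and 63.5 CPM in thermoneutral libraries, with overlap. BAT over sWAT was 2.22 ± 0.55 at thermoneutrality (SE, adjusted p = 0.00392), with no overlap, and 0.63 ± 0.53 in cold (adjusted p = 0.503). Cold over thermoneutral was −0.81 ± 0.41 in BAT (adjusted p = 0.23) and 0.69 ± 0.54 in sWAT (adjusted p = 0.313). With BAT thermoneutral library 3 left out, the BAT value was −1.18 and passed (adjusted p = 0.0246).

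Cox8a, Cox6a1 and Cox4i1, the ubiquitous partners of Cox8b, Cox6a2 and Cox4i2, passed none of the 5 comparisons without corrections. They lie at chr19:7215153-7217616, minus strand (Cox8a), chr5:115345642-115348981, minus strand (Cox6a1) and chr8:120668222-120674207, plus strand (Cox4i1). Cox8a had 2309.8, 1920.1 and 345 CPM in cold BAT and 1625, 2070.3 and 1009 in thermoneutral BAT, against 171, 1082 and 1708 in cold sWAT and 1099.9, 1199 and 596 in thermoneutral sWAT. Cox6a1 had 1645, 1929 and 219.7 CPM in cold BAT and 1884, 1945 and 1255 in thermoneutral BAT, against 161, 1270.2 and 1103 in cold sWAT and 709, 842 and 409.6 in thermoneutral sWAT. Cox4i1 had 1464, 1343 and 509 CPM in cold BAT and 1772, 1433 and 975 in thermoneutral BAT, against 436, 1276 and 1038 in cold sWAT and 1312, 1200.1 and 776 in thermoneutral sWAT. In all 3 genes the low values were BAT cold library 3 and sWAT cold library 1, and the temperature groups overlapped in both depots. The GC contents of Cox6a1 (58.8%), Cox8a (58.5%) and Cox4i1 (58.0%) were the highest of the 10 genes. Cold over thermoneutral was 0.013 ± 0.61, −0.37 ± 0.65 and −0.28 ± 0.43 in BAT for Cox8a, Cox6a1 and Cox4i1 in that order, and 0.022 ± 0.69, 0.36 ± 0.65 and −0.27 ± 0.44 in sWAT (log2 ± SE, adjusted p from 0.636 to 0.992). BAT over sWAT at thermoneutrality was 0.70 ± 0.73, 1.37 ± 0.74 and 0.35 ± 0.47 (adjusted p = 0.426, 0.125 and 0.546), and Cox6a1 alone of the 3 had no overlap there. Cox6a1 passed that comparison with BAT cold library 3 left out (1.35, adjusted p = 0.0489) and in a fit of the thermoneutral libraries alone (1.36, 0.0116). After GC correction all 3 passed there: Cox8a (1.74, 0.0254), Cox6a1 (2.45, 0.00375) and Cox4i1 (1.33, 0.00336). Cox4i1 overlaps Emc8 on the opposite strand and Gm20388 on the same strand, and 1.48% of the 100-base stretches of Cox6a1 recur in another gene model, so counts of both could include reads of their neighbours or copies.

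Cox6b1 (chr7:30616861-30626151, minus strand), a ubiquitous subunit at the face of the complex where cytochrome c docks, was called in both comparisons with thermoneutral sWAT. It had 789, 772 and 523 CPM in BAT cold libraries, against 927, 936 and 268 CPM in BAT thermoneutral libraries. In sWAT it had 224, 736 and 594 CPM in cold libraries, against 282, 146 and 179.8 CPM in thermoneutral libraries. Both pairs of groups overlapped, since sWAT cold library 1 lay among the thermoneutral libraries and BAT thermoneutral library 3 lay below all other BAT libraries. The log2 fold change of cold over thermoneutral was 1.33 ± 0.47 in sWAT (SE, adjusted p = 0.0421) and 0.026 ± 0.46 in BAT (adjusted p = 0.98). BAT over sWAT was 1.81 ± 0.52 at thermoneutrality (adjusted p = 0.00894) and 0.42 ± 0.50 in cold (adjusted p = 0.658). The call in cold sWAT ended with sWAT cold library 2 (adjusted p = 0.125) or 3 (0.108), or sWAT thermoneutral library 2 (0.147) or 3 (0.109), left out, and with the replicate number as a block (0.133).

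Cox7a2l (chr17:83501918-83517330, minus strand), a paralog of Cox7a2 whose protein joins complexes III and IV in supercomplexes and is known to be shortened in C57BL/6 mice, was higher in BAT than sWAT at thermoneutrality. It had 219, 271 and 276 CPM in BAT cold libraries, against 309, 314 and 1139 CPM in BAT thermoneutral libraries. All BAT thermoneutral libraries lay above the cold ones, and library 3 was far above the others. The sWAT values were 237, 172 and 218 CPM in cold libraries, against 185, 180.4 and 211 CPM in thermoneutral libraries, with overlap. BAT over sWAT was 1.61 ± 0.44 at thermoneutrality (SE, adjusted p = 0.00693) and 0.29 ± 0.43 in cold (adjusted p = 0.738). Cold over thermoneutral was −1.15 ± 0.52 in BAT (adjusted p = 0.181) and 0.12 ± 0.27 in sWAT (adjusted p = 0.732). With BAT thermoneutral library 3 left out, the BAT value was −0.25 (adjusted p = 0.543) and BAT over sWAT at thermoneutrality was 0.71 (adjusted p = 0.0351). Of its 100-base stretches, 9.90% recur in Gm6969, so part of its count is uncertain.

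**Figure D3:**
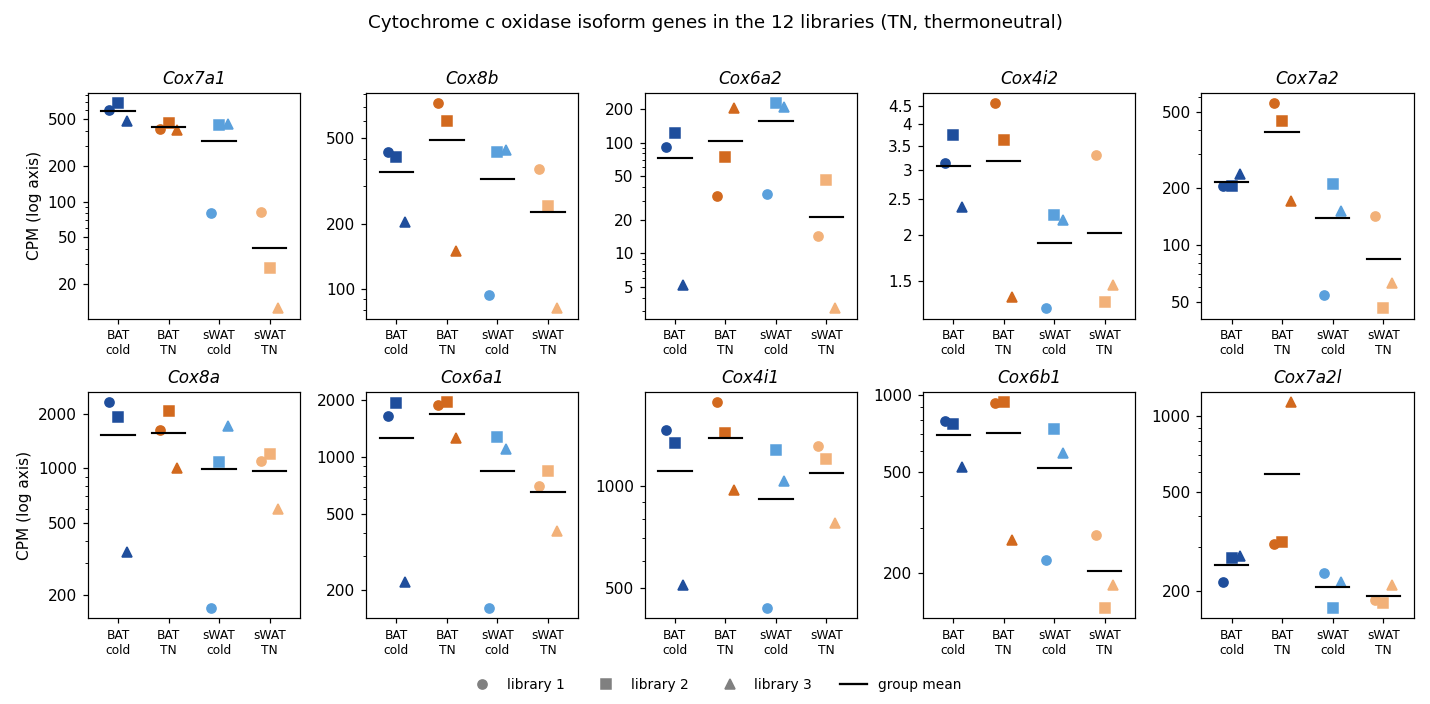
CPM (y axis, log) of the 10 genes in the 12 libraries by group, with the tissue-restricted isoforms first. Symbols give the library number and lines the group mean, and Cox7a1 shows 12.5 to 82.9 CPM in sWAT thermoneutral libraries, against 404 CPM or more in every BAT library.

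By mean CPM the BAT groups ranked above the sWAT groups for 9 of the 10 genes, and sWAT cold ranked first for Cox6a2. In that order, neighbouring groups overlapped in every case but Cox7a1, where BAT cold lay above BAT thermoneutral, and Cox7a2l, where BAT thermoneutral lay above BAT cold. Between genes, levels were compared as CPM per kilobase of transcript. In BAT cold libraries Cox8a (2773 ± 1891), Cox6a1 (2215 ± 1604) and Cox4i1 (1445 ± 679) had the highest means, with Cox7a1 next (1218 ± 205, SD, n = 3), and these neighbours overlapped. In sWAT thermoneutral libraries Cox7a1 was eighth of the 10 (84.4 ± 76.5 CPM per kilobase) and overlapped Cox7a2 (128 ± 77.8). Cox4i2, at 4.21 ± 0.921 CPM per kilobase in BAT cold and 2.76 ± 1.51 in sWAT thermoneutral libraries, lay below the other 9 genes without overlap in all 4 groups.

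The balance within an isoform pair does not depend on how libraries are scaled, although the partners differ in GC content (55.3% in Cox7a1 and 51.9% in Cox7a2). Per transcript length, Cox7a1 made up 80.0, 82.0 and 73.7% of Cox7a1 and Cox7a2 together in BAT cold libraries, 50.3, 58.5 and 76.2% in BAT thermoneutral, 66.9, 74.3 and 80.6% in sWAT cold and 44.1, 44.6 and 21.1% in sWAT thermoneutral libraries. By these lengths it was the larger share in all 9 libraries outside sWAT thermoneutral and the smaller share in all 3 sWAT thermoneutral ones. The means were 78.6 ± 4.31%, 61.7 ± 13.3%, 73.9 ± 6.85% and 36.6 ± 13.4% (SD, n = 3) in the same order. With exons merged over all transcripts as the length, the shares were 82.6 ± 3.69%, 67.4 ± 12.2%, 78.6 ± 5.98% and 42.5 ± 14.5%. By that length the highest sWAT thermoneutral library was at 51.1%, so Cox7a1 was then not the smaller share in every library of that group.

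Cox8b made up 22.2, 24.5 and 47.6% of Cox8b and Cox8a in BAT cold, 40.6, 30.8 and 18.6% in BAT thermoneutral, 45.7, 37.8 and 28.4% in sWAT cold and 33.4, 23.7 and 17.2% in sWAT thermoneutral libraries, and all 4 groups overlapped. Cox6a2 made up 4.43, 5.07 and 1.94% of Cox6a2 and Cox6a1 in BAT cold, 1.45, 3.11 and 12.0% in BAT thermoneutral, 15.1, 13.1 and 13.8% in sWAT cold and 1.67, 4.37 and 0.649% in sWAT thermoneutral libraries. The sWAT cold libraries lay close together in this share and lay above all other libraries, beside the muscle marker sums given above. Cox4i2 made up at most 0.487% of Cox4i2 and Cox4i1 in any library.

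**Figure D4:**
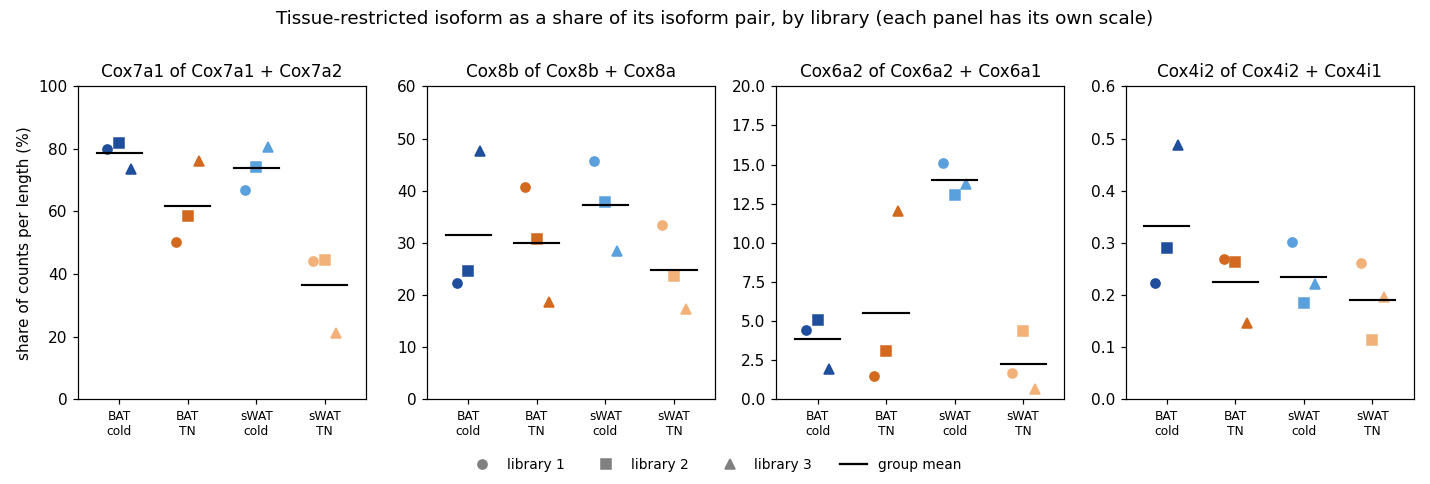
Share (%) of the tissue-restricted isoform in the length-scaled counts of its isoform pair (y axis, a scale for each panel) in the 12 libraries by group. Symbols give the library number and lines the group mean, and the Cox7a1 share averages 78.6 ± 4.31% in BAT cold and 36.6 ± 13.4% in sWAT thermoneutral libraries.

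Differences of the log2 count ratio were tested with exact two-sided permutation tests over libraries. For Cox7a1 over Cox7a2, BAT minus sWAT, averaged over the temperatures, was 0.97 (exact permutation p = 0.035, adjusted p = 0.14 over the 4 pairs, 400 arrangements). After correction for GC content and length it was 1.54 (exact p = 0.01, adjusted p = 0.04). The same difference was −0.028 for Cox8b over Cox8a (exact p = 0.96), −0.46 for Cox6a2 over Cox6a1 (exact p = 0.58) and 0.36 for Cox4i2 over Cox4i1 (exact p = 0.25), with adjusted p of 0.5 to 0.96. For Cox8b and Cox6a2 the average joins depot differences of opposite sign. Mean log2 ratios of Cox6a2 over Cox6a1 were −4.52 in BAT and −2.37 in sWAT in cold, and −4.39 and −5.61 at thermoneutrality. Those of Cox8b over Cox8a were −1.80 in BAT and −1.38 in sWAT in cold, and −1.90 and −2.26 at thermoneutrality. Cold minus thermoneutral in sWAT was 2.38 for Cox7a1 over Cox7a2 and 3.24 for Cox6a2 over Cox6a1, both with the smallest p that 3 against 3 allows (exact p = 0.1, adjusted p = 0.2). It was 0.88 for Cox8b over Cox8a (exact p = 0.2) and 0.36 for Cox4i2 over Cox4i1 (exact p = 0.5). In BAT, cold minus thermoneutral was 1.16 for Cox7a1 over Cox7a2 (exact p = 0.2), 0.095 for Cox8b over Cox8a, −0.13 for Cox6a2 over Cox6a1 and 0.54 for Cox4i2 over Cox4i1 (exact p from 0.4 to 1). Without corrections, 0 of the 4 differences of BAT minus sWAT passed after adjustment. The tests of cold minus thermoneutral could not have passed, since 3 against 3 allow no p under 0.1. Without the BAT libraries numbered 3, a choice made after seeing the data, the BAT value was 1.84 for Cox7a1 over Cox7a2, −0.86 for Cox8b over Cox8a and 1.19 for Cox6a2 over Cox6a1, and 2 against 2 allow no p under 0.333.

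Counted over the set, in cold sWAT 3 of 10 genes rose (Cox7a1, Cox6a2 and Cox6b1) and 0 fell, where 25.1% of the 15731 genes tested were called higher and 49.2% were called in either direction. The share of the set was thus near that of all genes for higher calls. By class, 2 of 4 tissue-restricted and 1 of 5 ubiquitous isoforms rose, and the median log2 fold change was 1.69 and 0.36 in these classes, against 0.0049 over all genes tested. The 4 tissue-restricted values were −0.10 (Cox4i2), 0.48 (Cox8b), 2.89 (Cox6a2) and 2.98 (Cox7a1), so their median lay near none of them. The groups did not overlap for 0 of the 10 genes, against 60.6% of all genes. The count of 3 was 1 without sWAT cold library 2 (Cox7a1), cold library 3 (Cox7a1), thermoneutral library 2 (Cox6a2) or thermoneutral library 3 (Cox7a1), 1 without the low-count filter (Cox6b1) and 1 with the replicate number as a block (Cox6a2).

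In cold BAT 0 of 10 genes passed edgeR's test, where 12.2% of 14612 genes did, and 0 had an unadjusted p under 0.05. DESeq2 and limma-voom also called 0. The median log2 fold change of the 10 was −0.32, against −0.04 over all genes, and 2 (Cox7a1 and Cox7a2l) had groups that did not overlap, against 35.7% of all genes. Without both BAT libraries numbered 3, a choice made after seeing the data, 3 of 10 passed: Cox7a1 rose (0.60, adjusted p = 0.0352), while Cox7a2 (−1.24, 7.30e-04) and Cox8b (−0.60, 0.0335) fell. In the same fit 6509 of 14566 genes passed, against 1777 with all libraries.

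The response to cold in sWAT minus that in BAT passed for 0 of 10 genes, where 25.1% of 16365 genes passed (17.3% with a positive and 7.85% with a negative difference), and 3 had an unadjusted p under 0.05 (Cox7a1, Cox6a2 and Cox7a2l). DESeq2 called 1 (Cox7a1) and limma-voom 0. The median difference of the 10 was 1.16, against 0.12 over all genes. With GC correction 1 of 10 passed (Cox7a1, as given above).

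At thermoneutrality BAT was higher than sWAT for 4 of 10 genes (Cox7a1, Cox7a2, Cox7a2l and Cox6b1) and was lower for 0, where 58.7% of 16365 genes passed, 29.9% higher and 28.8% lower. The median log2 difference was 1.49, against 0.03 over all genes, and 4 genes (Cox7a1, Cox7a2, Cox7a2l and Cox6a1) had no overlap, against 66% of all genes. After correction of each library for GC content, 9 of 10 passed (all but Cox6a2), and after correction for GC and length all 10 did, with 5069 and 4992 of all genes called higher. In cold, 0 of 10 passed by edgeR, DESeq2 or limma-voom, where 12.3% of genes passed (1.19% higher and 11.1% lower in BAT), 0 had an unadjusted p under 0.05, and 2 (Cox7a1 and Cox4i2) had no overlap, against 35.2% of all genes. The comparisons share libraries, so they are not independent of each other. In the main fits, every call of the 10 genes came from a comparison with the sWAT thermoneutral libraries. These stood apart in mitochondrial and ribosomal protein shares and in GC slope. Summed over 12 lymphocyte markers, levels were 760 to 1040 CPM in sWAT thermoneutral and 182 to 530 in sWAT cold libraries. They were 7.26 to 10.5 CPM in BAT thermoneutral and 3.40 to 5.35 in BAT cold libraries. Of the 12, 7 fell in cold sWAT and 0 rose (24.1% and 25.1% of all genes). All 12 were lower in BAT than sWAT, both at thermoneutrality (28.8% of all genes) and in cold (11.1%). The part of that composition in the calls was not tested.

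**Figure D5:**
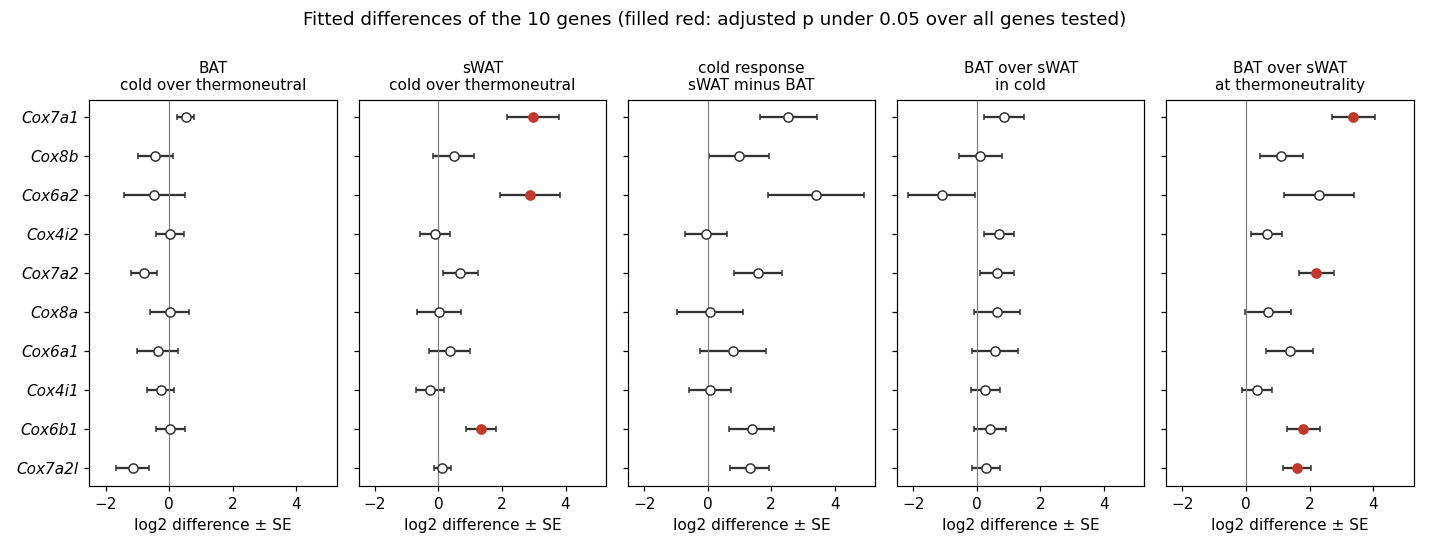
Log2 differences ± SE (x axis) of the 10 genes (y axis) in the 5 comparisons, with filled red points where the adjusted p was under 0.05. Red points are Cox7a1, Cox6a2 and Cox6b1 for cold sWAT and Cox7a1, Cox7a2, Cox6b1 and Cox7a2l for BAT over sWAT at thermoneutrality.

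The rest of complex IV was read from lists. Of 7 other nuclear subunits tested, 0 passed in cold BAT, where 1 had an unadjusted p under 0.05 and the median was −0.11, and 1 rose in cold sWAT, where 25.1% of all genes did. It was Cox7b, with 189, 678 and 543 CPM in sWAT cold libraries against 229, 171 and 109 CPM in sWAT thermoneutral libraries (1.46 ± 0.49, adjusted p = 0.0353), with overlap. After GC correction it was 0.34 (adjusted p = 0.662), and the call ended with sWAT cold library 2 or 3 or any of the sWAT thermoneutral libraries left out (adjusted p = 0.0512 to 0.108). At thermoneutrality 3 of 7 were higher in BAT than sWAT and 0 lower, where 29.9% of all genes were higher and 28.8% lower. They were Ndufa4, once assigned to complex I (1.96 ± 0.40, adjusted p = 0.00107), Cox7b (2.21 ± 0.46, 0.00121) and Cox6c (1.55 ± 0.51, 0.0186). After GC correction Cox7b (0.91, 0.185) and Cox6c (1.24, 0.0654) no longer passed, and Cox6c did not pass with BAT thermoneutral library 2 (0.062) or sWAT thermoneutral library 3 (0.0636) left out.

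The mitochondrially encoded core subunits mt-Co1, mt-Co2 and mt-Co3 all rose in cold sWAT and were all higher in BAT than sWAT at thermoneutrality. mt-Co1 averaged 68257 ± 18749.8 CPM in sWAT cold libraries, against 506 ± 123 CPM in sWAT thermoneutral libraries (7.08 ± 0.57, adjusted p = 1.98e-04), and mt-Co2 (7.27 ± 0.54, 1.81e-04) and mt-Co3 (6.73 ± 0.50, 1.81e-04) rose too. These values go with the low mitochondrial share of the whole sWAT thermoneutral libraries given above. In cold BAT 0 of 3 passed, with 0 at an unadjusted p under 0.05, and the median log2 fold change was 0.09.

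Of the assembly factors of complex IV, which insert its heme and copper and put the subunits together, some rose in cold in each depot. In cold BAT 4 of 26 rose and 1 fell, where 6.82% of genes were called higher and 5.34% lower. Cox10, which makes heme O, had 114, 122 and 72.5 CPM in BAT cold libraries, against 26.0, 33.6 and 23.1 CPM in BAT thermoneutral libraries (1.95 ± 0.30, adjusted p = 0.00753). Cox15, which makes heme A, had 69.8, 66.9 and 72.8 CPM in BAT cold libraries, against 18.5, 28.3 and 23.5 CPM in BAT thermoneutral libraries (1.63 ± 0.26, 0.00813). Both genes showed no overlap, and BAT cold library 3 was not low for Cox15. Coa7, another assembly factor, was at 1.39 ± 0.27 (0.0152), and its call ended with BAT cold library 1 or 2 or BAT thermoneutral library 1 or 2 left out (adjusted p = 0.0544 to 0.0746). In cold sWAT, Cox10 (1.55 ± 0.34, 0.00613), Cox15 (0.76 ± 0.23, 0.0213) and Coa7 (1.95 ± 0.40, 0.00452) rose too, without overlap. The response in sWAT minus that in BAT did not pass for Cox10, Cox15 or Coa7 (adjusted p = 0.627, 0.0800 and 0.360).

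In cold sWAT 8 of the 26 assembly factors rose and 1 fell, where 25.1% of genes were called higher and 24.1% lower. Coa5 averaged 245 ± 51.7 CPM in sWAT cold libraries, against 38.3 ± 5.17 CPM in sWAT thermoneutral libraries (2.67 ± 0.29, adjusted p = 3.73e-04). Lrpprc, which binds mitochondrial messenger RNA, was at 1.79 ± 0.24 (7.35e-04), and Cox20, a chaperone of mt-Co2, at 3.19 ± 0.54 (0.00185). In cold BAT, Coa5 (1.02 ± 0.29, 0.0565), Lrpprc (0.88 ± 0.27, 0.0710) and Cox20 (0.84 ± 0.56, 0.357) had positive values that did not pass. At thermoneutrality 8 of 26 were higher in BAT than sWAT, near the share of all genes (29.9%), and 3 were lower, where 28.8% of all genes were. The higher calls were led by Cmc1 (2.63 ± 0.29, 1.07e-05), Coa5 (2.29 ± 0.29, 2.98e-05) and Lrpprc (1.47 ± 0.25, 2.48e-04). In cold, 0 of 26 assembly factors, 0 of 7 other nuclear subunits and 0 of 3 mitochondrially encoded ones passed between the depots by edgeR, with 2, 0 and 0 at an unadjusted p under 0.05.

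Genes of like pattern were sought for each tissue-restricted isoform among 14606 genes, by the root mean square difference of centred log2 CPM over the 12 libraries. Closest to Cox7a1 were Cidea (0.41), Suclg1 (0.41), Cpt1b (0.43), Mmd2 (0.50) and Ndufv2 (0.52), where the spread of Cox7a1 itself was 1.85. Its partner Cox7a2 came at rank 990 (1.20). Closest to Cox8b were Chchd2 (0.39), Ndufb6, Gpx4, Cox17 and Tnfrsf12a (0.43), with a spread of Cox8b of 0.98 and Cox8a at rank 231. Closest to Cox6a2 were Hhatl (0.82), Tcap, Ankrd23, Hspa1l and Kcnj12 (0.88), with a spread of 1.96. Closest to Cox4i2 were Klf11 (0.26), Snf8, Mmrn2, Itga3 and Jup (0.30), with a spread of 0.62. The 12 points share library depth and base composition, and without the sWAT thermoneutral libraries, a choice made after seeing the data, the closest genes were Myo5b (0.22) for Cox7a1, Tnfrsf12a (0.11) for Cox8b, Mafa (0.49) for Cox6a2 and Cisd3 (0.18) for Cox4i2.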

How the data were processed

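The authors deposited 1 table of raw counts per gene, whole numbers for 23163 gene symbols in 12 libraries. Per the submitters' processing notes, STAR, DESeq2 and the mm10 build were used. For the counting tool, its strand setting and the annotation, nothing was given in the sources used here. Libraries were made from 1000 ng of total RNA with Illumina TruSeq protocols and read as 100-base pairs, per the labels' protocols. The columns of BAT cold library 1 and of sWAT cold library 2 carry the word Merged, which is not explained. Every column had a sample, and no 2 libraries were identical.

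Counts were fitted in R 4.3.3 with edgeR 4.0.16 (filterByExpr, TMM, glmQLFit with robust estimation, glmQLFTest), within each depot for cold against thermoneutral and over all 12 libraries with 4 group means for the other comparisons. Adjusted p-values (Benjamini-Hochberg, all genes that were tested) under 0.05 passed. All 10 genes passed the low-count filter in every fit. The main fit of each comparison, but none of the alternatives, was also run on simulated counts. These were drawn without GC slopes between libraries, so they do not cover the slopes seen here. CPM were computed from the deposited counts with TMM factors over 12 libraries. Gene positions, lengths (longest protein-coding transcript) and GC content came from GENCODE M21, with values for 96.0% of the genes. Ratios within a library used counts plus 0.5. Intervals and tests cover the libraries at hand, and depth limits Cox4i2 most.

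Named are all 10 genes, up to 3 genes per list and comparison with the smallest adjusted p past the threshold, and the 5 genes most like each tissue-restricted isoform, without predicted models. The genes, lists and rule were chosen with earlier results of these data known. Alternatives were RLE and upper quartile scaling, no filter, 1 CPM in 3 libraries, DESeq2 1.42.0, limma-voom (limma 3.58.1), the replicate number as a block, GC and length corrections by splines with 4 degrees of freedom, other sets of libraries in the fit, and each library left out. Amino acid sequences were not used here.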

Additional observations from a re-analysis of the deposited data

Results flagged for a closer look

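The response to cold differed between the depots (sWAT minus BAT, edgeR's quasi-likelihood test of the difference itself) for 2 of 7 other nuclear subunits, 3 of 3 mitochondrially encoded subunits and 4 of 26 assembly factors, where 25.1% of all genes differed. The values of 8 of them are given, at most 3 for each list (log2 ± SE). The mitochondrially encoded subunits differed by 7.04 ± 1.00 for mt-Co1 (adjusted p = 8.40e-04), 6.34 ± 0.94 for mt-Co2 (adjusted p = 0.00102) and 7.32 ± 1.42 for mt-Co3 (adjusted p = 0.00377). mt-Co1 averaged 506 CPM in sWAT thermoneutral libraries, against 68257 in sWAT cold, 101021 in BAT thermoneutral and 103304 in BAT cold libraries. These differences go with the low share of all mitochondrially encoded genes in the sWAT thermoneutral libraries (0.181 to 0.307% of counts). Among nuclear subunits, Ndufa4 differed by 1.76 ± 0.55 (adjusted p = 0.034) and Cox7b by 1.87 ± 0.63 (adjusted p = 0.044). After GC correction these were 0.93 (adjusted p = 0.33) and 0.54 (adjusted p = 0.674). The Cox7b call also ended with RLE scaling (1.71, adjusted p = 0.0576) and in limma-voom (1.82, adjusted p = 0.0509). The Ndufa4 call also ended with the replicate number as a block (1.75, adjusted p = 0.0520). Among assembly factors, Cmc1 differed by 2.42 ± 0.39 (adjusted p = 0.00151), Coa5 by 1.71 ± 0.39 (adjusted p = 0.00826) and Cox11, which delivers copper, by −1.94 ± 0.62 (adjusted p = 0.0367). Cmc1 had 16.2, 14.5 and 15.5 CPM in BAT cold libraries against 32.6, 32.1 and 24.8 in BAT thermoneutral ones, and 9.01, 14.8 and 15.9 in sWAT cold libraries against 6.12, 4.37 and 3.93 in sWAT thermoneutral ones. It was thus lower in cold than in thermoneutral BAT and higher in cold than in thermoneutral sWAT, without overlap in either. After GC correction Coa5 (1.10, adjusted p = 0.0753) and Cox11 (−1.87, adjusted p = 0.0567) no longer passed. With 1 library left out, the calls also ended for Ndufa4 in 9 of 12 fits (adjusted p = 0.0511 to 0.0952), for Cox7b in 10 of 12 (adjusted p = 0.0518 to 0.131) and for Cox11 in 4 of 12 (without BAT cold library 1, BAT thermoneutral library 3 or sWAT thermoneutral library 1 or 2, adjusted p = 0.0526 to 0.0904).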

How the results depend on the processing

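With 1 library left out, BAT over sWAT passed for 4 to 6 of 10 genes at thermoneutrality and for 0 of 10 in cold. The number of genes called higher in BAT at thermoneutrality was 9 of 10 with GC correction, 10 with GC and length correction and 9 with GC correction and replicate block. In cold sWAT, 3 of 10 became 1 without the low-count filter, and 1 to 2 with 1 library left out. For the difference of responses, 0 of 10 became 1 with DESeq2, GC correction, GC and length correction, or GC correction with replicate block, and ran from 0 to 1 with 1 library left out. In cold BAT, 0 of 10 ran from 0 to 1 with 1 library left out and was 3 without both libraries numbered 3, an alternative chosen after seeing the data. Over all genes, calls in cold BAT were 1777 with all libraries, 2806 with DESeq2, 3279 with GC correction, 3380 with GC and length correction, 6509 without both libraries numbered 3 and 451 (without BAT cold library 2) to 2483 (without BAT cold library 3) with 1 left out. The left-out range over all genes was 2419 to 5498 for the difference of responses (without BAT cold library 2 and 3, against 4108) and 1100 to 2239 for BAT over sWAT in cold (without sWAT cold library 1 and BAT thermoneutral library 3, against 2015). Upper quartile scaling moved the median of all genes in cold BAT to −0.20, from −0.04, and the split of calls to 774 higher and 1089 lower, from 996 and 781. RLE scaling moved the median difference of responses to −0.032, from 0.12, and the split to 2423 higher and 1727 lower, from 2824 and 1284.

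The replicate number as a block left 1 of 10 genes called in cold sWAT (Cox6a2) and gave 2799 calls over all genes in cold BAT, or 3682 with GC correction. Whether the experiment numbers in the titles pair the samples is not known. Deviations from the group means of same-numbered libraries correlated by 0.306, 0.0665 and 0.289 between cold and thermoneutral BAT and by −0.231, 0.187 and −0.312 in sWAT, so the numbers were not treated as pairs. Between cold and thermoneutral BAT each library correlated best with its own number, which is a hint from the data and not the design. With the replicate block the values that changed sign were −0.32 (Cox8a) in cold BAT, 0.0042 (Cox4i2) and −0.39 (Cox8a) in cold sWAT, and −0.16 (Cox8b) for BAT over sWAT in cold, and with GC correction and the replicate block they were −0.40 (Cox8a) in cold BAT, 0.56 (Cox4i1) and 0.78 (Cox4i2) in cold sWAT, 0.80 (Cox4i2) for the difference of responses, and −0.034 (Cox8b) for BAT over sWAT in cold.

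Among single genes, the values that changed sign were all of genes that passed in neither setting. They were −0.15 (Cox4i2), −0.15 (Cox6b1) and −0.17 (Cox8a) in cold BAT and −0.041 (Cox8a) in cold sWAT with upper quartile scaling, −0.087 (Cox4i1) and −0.083 (Cox8a) for the difference of responses with RLE scaling, −0.0014 (Cox8a) in cold sWAT without the filter, and −0.021 (Cox4i2), −0.017 (Cox6b1) and −0.036 (Cox8a) in cold BAT with a filter of 1 CPM in 3 libraries. With DESeq2 they were −0.087 (Cox4i1) and −0.083 (Cox8a) for the difference of responses, with limma-voom −0.33 (Cox8a) in cold BAT, −0.38 (Cox8a) in cold sWAT, and −0.0051 (Cox8a) for the difference of responses, and with the 12-library fit −0.037 (Cox4i2), −0.032 (Cox6b1) and −0.040 (Cox8a) in cold BAT. With GC correction they were −0.031 (Cox4i2), −0.072 (Cox6b1) and −0.24 (Cox8a) in cold BAT, 0.62 (Cox4i1) and 0.71 (Cox4i2) in cold sWAT, and 0.80 (Cox4i2) for the difference of responses, and with GC and length correction 0.82 (Cox4i1) and 0.94 (Cox4i2) in cold sWAT and 0.72 (Cox4i2) for the difference of responses. Without both BAT libraries numbered 3 they were −0.18 (Cox4i2), 1.04 (Cox6a2) and −0.20 (Cox6b1) in cold BAT and −0.053 (Cox4i1), 0.17 (Cox4i2) and −0.15 (Cox8a) for the difference of responses. With single libraries left out, sign changes gave these ranges. In cold BAT, the log2 values ran from −0.51 to 0.073 (Cox4i1), −0.36 to 0.33 (Cox4i2), −0.82 to 0.14 (Cox6a1), −1.09 to 0.48 (Cox6a2), −0.38 to 0.30 (Cox6b1) and −0.40 to 0.49 (Cox8a). In cold sWAT, the log2 values ran from −0.55 to 0.067 (Cox4i1), −0.35 to 0.47 (Cox4i2), −0.029 to 0.85 (Cox6a1) and −0.63 to 0.53 (Cox8a). For the difference of responses, the log2 values ran from −0.47 to 0.29 (Cox4i1), −0.58 to 0.49 (Cox4i2) and −0.61 to 0.35 (Cox8a). For BAT over sWAT in cold, the log2 values ran from −0.12 to 0.57 (Cox8b). The cause of these changes was not tested.

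For the isoform ratios, correction for GC and length gave 1.54 for Cox7a1 over Cox7a2 (adjusted p = 0.04) and 0.44 for Cox8b over Cox8a in BAT minus sWAT, and the Cox8b value ran from −0.29 to 0.18 with 1 library left out. Without both BAT libraries numbered 3, cold minus thermoneutral in BAT was −0.061 for Cox4i2, 1.19 for Cox6a2, 1.84 for Cox7a1 and −0.86 for Cox8b, each over its partner. Depth limits Cox4i2 most, at 54 to 142 counts per library.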

Other observations

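BAT thermoneutral library 3 differed from its group in the balance of the mitochondrially encoded subunits. Per 100 counts of mt-Co1, mt-Co3 had 27.2, 30.0 and 18.7 counts in BAT cold libraries and 42.4, 34.3 and 2.72 in BAT thermoneutral libraries, and 17.8, 38.4 and 31.2 in sWAT cold libraries and 30.5, 36.1 and 36.2 in sWAT thermoneutral libraries. The value in BAT thermoneutral library 3 was the lowest of the 12. The same library held 1139 CPM of Cox7a2l and 2553 CPM of Adipoq, above the other 11 libraries for both genes.

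In BAT cold library 3 the assembly factor Cox20 had 86.5 CPM, against 25.5 and 16.1 CPM in the other BAT cold libraries, while Cox6a2 stood at 5.18 CPM, against 90.8 and 123 CPM. These patterns were picked after their values were seen.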
